A study of Mus musculus with 4 samples.

Results

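The genes described here encode the enzymes that place and remove methyl groups on lysines 4 and 9 of histone H3, the subunits that these enzymes work with, and proteins that read methylated lysine 9. The set was given as a list of 44 mouse gene symbols, chosen by function with earlier results of these data known, and all 44 were found among the 21883 protein-coding genes of the RefSeq table. A peak was assigned to a gene when it overlapped the gene or lay within 1000 bp of it. The study mapped H3K4me3 and H3K9me3 by chromatin immunoprecipitation with sequencing (ChIP-seq) in peritoneal macrophages that had been elicited with thioglycollate broth and cultured. The cells came from 8-week-old C57BL/6 mice that were either wild type or Sun-/-, here called Sun knockout, and the labels leave unsaid which gene is meant by Sun, how the allele was made and whether animals were pooled. There was 1 library for each mark and genotype, 4 in all. Differences between genotypes therefore have no replicates behind them, no p-value was computed, and every interval is a 95% interval of counting error alone.

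H3K4me3 is found at the starts of active genes. The enzymes of the Kmt2 and Setd1 families place it, working with the shared core subunits Wdr5, Rbbp5, Ash2l and Dpy30, and demethylases of the Kdm1 and Kdm5 families remove methyl groups from the same lysine. H3K9me3 is a mark of silenced chromatin, placed by enzymes such as Suv39h2 and Setdb1, bound by the heterochromatin proteins that Cbx1, Cbx3 and Cbx5 encode, and removed by Kdm4 enzymes. The genes of this machinery are themselves transcribed in most cell types, and their own chromatin is what is described here.

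The libraries held 26748289 to 29681491 tags, or mapped reads, after removal of duplicates. H3K4me3 peaks were fewer in the knockout list (28505 against 31398), and the median protein-coding gene marked in both genotypes had 0.697 times as many H3K4me3 tags in the knockout list, so the ratios below are log2 ratios of knockout over wild type relative to that gene, called centred. Scaled instead to the tags left after duplicate removal, every centred H3K4me3 tag ratio is lower by 0.37 and every centred H3K9me3 tag ratio higher by 0.13. Of the macrophage markers listed for a check of the cell type, 10 of 10 had an H3K4me3 peak in both genotypes, with 226 to 869 tags in wild-type cells and 119 to 1128 in the Sun knockout. Of the markers of other cells, 1 of 6 for T and NK cells, 2 of 5 for B cells, 0 of 5 for neutrophils, 1 of 6 for mast cells and eosinophils (Siglecf, 32 and 75 tags) and 3 of 7 for mesothelial cells and fibroblasts were marked in both. Most of these had tags within the range of the macrophage markers: Cd4 311 and 238, Cd79a 354 and 256, Pax5 382 and 268. Likewise Wt1 had 321 and 207 and Pdgfra 591 and 451, while Col1a1 had 199 and 140. The library of wild-type cells alone had peaks at the mesothelial and fibroblast genes Upk3b (101 tags), Krt19 (33) and Col1a2 (79), and that of the knockout alone at the neutrophil genes S100a8 (21) and Camp (56). The part of this in the results below was not tested. In such bulk chromatin, fewer cells carrying a mark and less of the mark per cell cannot be told apart.

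The starts of these genes were rich in CpG. Promoter sequences, from 250 bases before to 50 bases after a listed gene start, were taken from RefSeq (GRCm38.p6, the assembly that mm10 names) for 33 of the 44 genes and 51 starts. The 11 others, Kmt2b, Kmt2e, Setd1b, Ash1l, Ash2l, Cxxc1, Smyd3, Kdm5a, Prdm2, Kdm3b and Kdm4b, had no entry. The median promoter of the 51 held 29 CpG dinucleotides in 300 bases, and the median of 21262 promoters of protein-coding genes in the same table held 13. Below are the 250 bases upstream of the start of 6 genes whose peaks are described further on, 5′ to 3′ on the strand of the gene, with each CpG in capitals. They are shown because Kdm5b and Atf7ip had the highest and the lowest H3K4me3 tag density of the 44 genes, Mphosph8 the lowest tag ratio, Phf2 and Suv39h2 a start domain that was whole in wild-type cells and divided in the knockout, and Kmt2a both marks at its start.
Kmt2a (chr9:44881290-44881539, minus strand): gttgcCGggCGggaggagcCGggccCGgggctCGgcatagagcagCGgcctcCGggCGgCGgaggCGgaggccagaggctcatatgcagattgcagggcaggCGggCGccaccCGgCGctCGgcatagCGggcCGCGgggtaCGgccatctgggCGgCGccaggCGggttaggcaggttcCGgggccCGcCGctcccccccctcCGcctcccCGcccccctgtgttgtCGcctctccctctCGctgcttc
Kdm5b (chr1:134559928-134560177, plus strand): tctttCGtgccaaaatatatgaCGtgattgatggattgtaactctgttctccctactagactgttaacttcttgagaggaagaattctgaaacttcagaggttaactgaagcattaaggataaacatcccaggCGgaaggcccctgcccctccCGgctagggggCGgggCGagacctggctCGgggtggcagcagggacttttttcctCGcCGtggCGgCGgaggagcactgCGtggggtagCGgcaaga
Suv39h2 (chr2:3474987-3475236, minus strand): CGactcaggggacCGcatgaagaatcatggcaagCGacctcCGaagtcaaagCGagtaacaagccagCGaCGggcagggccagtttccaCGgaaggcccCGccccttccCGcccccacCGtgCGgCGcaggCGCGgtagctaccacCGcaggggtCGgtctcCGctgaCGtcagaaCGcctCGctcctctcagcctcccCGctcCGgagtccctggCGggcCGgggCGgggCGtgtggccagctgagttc
Atf7ip (chr6:136518601-136518850, plus strand): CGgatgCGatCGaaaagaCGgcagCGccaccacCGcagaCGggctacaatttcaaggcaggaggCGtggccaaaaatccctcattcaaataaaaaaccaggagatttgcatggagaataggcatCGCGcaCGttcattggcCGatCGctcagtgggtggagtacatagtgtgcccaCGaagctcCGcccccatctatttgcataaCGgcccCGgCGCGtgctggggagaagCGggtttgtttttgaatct
Mphosph8 (chr14:56667998-56668247, plus strand): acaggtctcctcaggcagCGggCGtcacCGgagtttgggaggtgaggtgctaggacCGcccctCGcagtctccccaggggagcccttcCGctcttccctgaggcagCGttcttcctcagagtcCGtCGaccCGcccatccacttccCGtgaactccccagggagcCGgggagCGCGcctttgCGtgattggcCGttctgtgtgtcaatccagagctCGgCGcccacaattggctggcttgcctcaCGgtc
Phf2 (chr13:48870886-48871135, minus strand): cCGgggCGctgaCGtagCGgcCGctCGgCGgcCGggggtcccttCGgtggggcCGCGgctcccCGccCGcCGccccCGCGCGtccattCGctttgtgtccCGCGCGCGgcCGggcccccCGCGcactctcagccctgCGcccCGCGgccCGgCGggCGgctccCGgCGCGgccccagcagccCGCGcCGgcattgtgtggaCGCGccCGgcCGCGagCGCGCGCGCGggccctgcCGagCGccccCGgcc

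These 250 bases held 50 CpG in Phf2, 29 in Kmt2a, 27 in Suv39h2, 20 in Atf7ip, 19 in Mphosph8 and 13 in Kdm5b. Among these 6 genes, the order of CpG number was not that of H3K4me3 density, and Kdm5b, with the fewest CpG, had the densest H3K4me3 of all 44. The 6 were picked in part as extremes of H3K4me3. Only upstream bases were counted, while the wild-type Kdm5b peak reached 1877 bp into the gene. No relation between CpG number and H3K4me3 can be read from them. Of the 51 promoters of 300 bases, searched on both strands, 16 (31.4%) held the SP and KLF motif GGGGCGGGG, against 15.4% of all promoters of protein-coding genes in the table. The ETS motif CCGGAAG was in 8 (15.7% against 11.6%) and the CCAAT box, CCAAT, in 17 (33.3% against 38.2%). The TATA box, TATAAA, was in 1, that of Morc2a (1.96% against 12.6%) and the E-box, CACGTG, in 4 (7.84% against 7.84%). The 51 promoters had a median GC content of 66.3%, against 56.3% for those of the table. The part of base composition in these shares was not tested. All 44 genes carried H3K4me3, while the promoters of the table were not limited to genes with the mark. Starts of 1 gene can share bases, so the 51 are not independent, and a match describes the letters only.

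The first comparison asked how H3K4me3 at these genes differed between the genotypes. All 44 genes carried H3K4me3 in both libraries, against 67.3% of all protein-coding genes, and 0 were marked in 1 genotype alone, against 2.93% of protein-coding genes with a peak in wild-type cells alone and 1.43% in the knockout alone. Their median covered length, the summed width of the peaks of a gene, was 2876.5 bp in wild-type cells and 2679 bp in the knockout, against 2112 and 1851.5 bp for all marked protein-coding genes. The median tag density over that length was 167 tags per kb in wild-type cells and 136 in the knockout, against 135 and 109. The 44 genes are long (median 42.2 kb against 17.2 kb), and covered length sums all peaks of a gene. Longer domains were not particular to them. Medians were 2956 and 2252 bp (172 and 130 tags per kb) for 53 other genes of H3K4 and H3K9 methylation. DNA methylation genes had 2997 and 2234 bp (154 and 109), and genes for methylation of H3K27, H3K36 and H4K20 2574 and 2421 bp (188 and 141). At 20 of the 44 genes an H3K4me3 peak was shared with the window of another protein-coding gene, so its tags may belong in part to that gene. The order of the 44 genes by tags was nearly the same in both libraries (Spearman's rho 0.97 across genes, which share the library, the antibody and the gene's length).

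**Figure D1:**
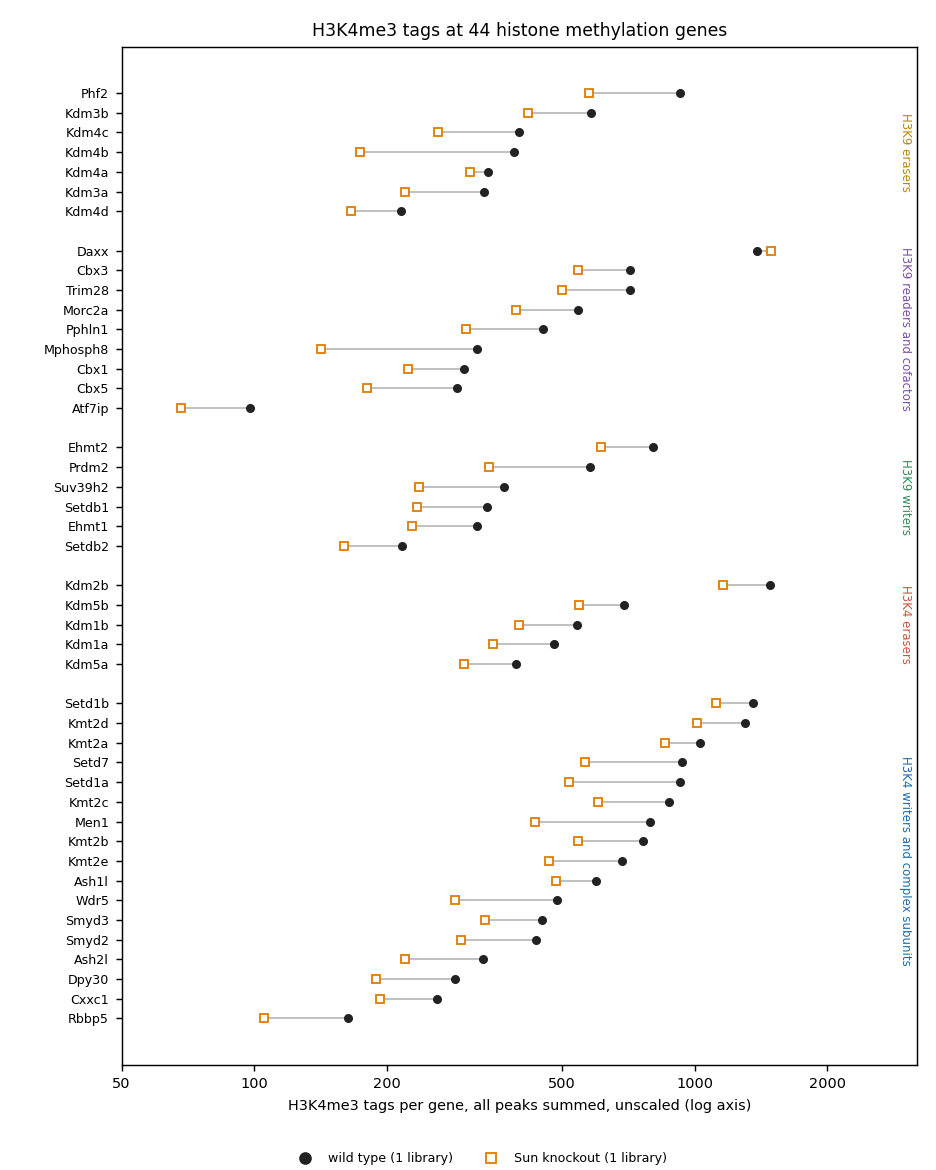
H3K4me3 tags per gene (horizontal log axis, all peaks of a gene summed, not scaled for depth) in wild type (filled circles) and Sun knockout (open squares), 1 library each, with the 44 genes grouped by role and ordered by wild-type tags within a role. Atf7ip is lowest with 98 and 68 tags, and Daxx is the gene whose knockout value, 1487 tags, lies above its wild-type value of 1386.

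Among the 17 genes for H3K4 writers and their subunits, the large methyltransferase genes carried long domains. Setd1b, a catalytic enzyme of the SET1 complexes, had 1358 tags over 8138 bp in wild-type cells and 1117 tags over 8475 bp in the knockout. Kmt2d, an enhancer-associated H3K4 methyltransferase, had 1297 tags over 6422 bp and 1011 over 6281 bp. Kmt2a, the enzyme that is rearranged in mixed-lineage leukaemia, had 1028 tags over 4399 bp and 854 over 4398 bp, so its covered length was equal to within 1 bp. Setd1a had 927 tags over 5569 bp in wild-type cells and 519 over 3952 bp in the knockout. Setd7, whose product places a single methyl group on H3K4 and on other proteins, had 933 tags over 6016 bp and 564 over 3394 bp. Kmt2b had 764 and 544 tags in 1 peak shared with the window of Zbtb32, Kmt2c 872 and 602 tags in 1 peak each, and Kmt2e 682 and 466.

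The core subunits of the same complexes had shorter domains. Rbbp5 had the shortest covered length of all 44 genes in wild-type cells, 1006 bp with 163 tags, and 1129 bp with 105 tags in the knockout. Dpy30 had 285 tags over 1442 bp and 189 over 1373 bp, Ash2l 331 over 2400 bp and 220 over 2127 bp, and Wdr5, the subunit that holds the core together, 487 over 3314 bp and 286 over 2113 bp. Cxxc1, which encodes the CpG-binding subunit of the SET1 complexes, had 260 tags over 1982 bp and 193 over 1941 bp. Men1, which encodes menin, the partner of Kmt2a, had 791 tags over 5358 bp in wild-type cells and 433 over 2958 bp in the knockout, of which 454 and 205 tags lay in a peak shared with the window of Map4k2. Ash1l, listed with the H3K4 enzymes although its product mainly methylates H3K36, had the third highest wild-type density of the 44, 267 tags per kb, and 153 in the knockout. A peak shared with the window of Dap3 held all 598 of its wild-type tags and 439 in the knockout. In the knockout a second Ash1l peak of 44 tags lay inside the gene. Smyd2 had 435 and 295 tags in a single peak. Smyd3 was unlike the others in having 7 wild-type and 4 knockout peaks spread over a gene of 566 kb, of which the strongest, with 210 and 154 tags, lay at the end of the gene with the higher coordinates, and its density was low, 79.1 and 72.7 tags per kb.

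All 5 H3K4 eraser genes had centred tag ratios slightly above 0, between 0.06 and 0.18, and all 5 lay below 0 when scaled to the tags after duplicate removal. Kdm5b, a demethylase of H3K4me3, had the densest H3K4me3 of the 44 genes in both libraries, 692 tags over 2109 bp in wild-type cells (328 tags per kb) and 545 over 2052 bp in the knockout (266), denser than 99.9% of marked protein-coding genes in wild-type cells. In both libraries these Kdm5b tags lay in a single peak that also touched the window of Mgat4e. Kdm5a, a close relative of Kdm5b, had 393 tags over 2815 bp and 300 over 2740 bp, or 140 and 109 tags per kb. Kdm2b, whose product binds CpG islands through its zinc finger and brings a Polycomb complex there, had the most covered length of the erasers, 7695 bp with 1479 tags and 8399 bp with 1158 tags. Kdm1b, a demethylase best known from oocytes, held 540 and 398 tags in 1 peak, and Kdm1a (LSD1) 479 and 349 tags in 4 peaks each.

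The H3K9 writer genes had moderate domains. Ehmt2 (G9a), which places the dimethyl mark, had 803 tags over 2801 bp in wild-type cells and 611 over 2777 bp in the knockout, the second densest domain of the 44 in wild-type cells at 287 tags per kb. All of these Ehmt2 tags lay in a peak that also touched the window of Zbtb12. The partner of Ehmt2, Ehmt1 (GLP), had 321 tags over 1390 bp and 228 over 1680 bp. Setdb1, the enzyme that silences retroelements, had 338 and 234 tags in 1 peak, and Setdb2, an interferon-inducible relative studied in macrophages, 217 and 160 in a peak shared with Cab39l. Suv39h2 had 369 tags in 1 wild-type peak and 195 and 42 in 2 knockout peaks. Prdm2 had 579 and 341 tags, including a peak inside the gene (chr4:143160790-143162343 in wild-type cells) with 215 and 113 tags.

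The reader and cofactor genes spanned the widest range. Atf7ip, which encodes the partner that stabilises Setdb1, had the fewest tags and the lowest density of the 44, 98 tags (57.1 per kb) in wild-type cells and 68 (56.4 per kb) in the knockout, and its start peak held only 49 and 42 tags. Trim28 (KAP1), the corepressor that zinc finger proteins bind to bring in Setdb1, had 714 tags over 3832 bp and 500 over 3688 bp. The heterochromatin protein genes differed from one another. Cbx3 had 714 and 543 tags at 255 and 199 tags per kb, Cbx1 299 and 223 tags at 180 and 113 per kb, and Cbx5 288 and 180 tags at 85.7 and 57.7 per kb. Cbx3 and Cbx5 lie beside Hnrnpa2b1 and Hnrnpa1, which encode paralogous RNA-binding proteins, and peaks shared with those windows held all 714 and 543 of the Cbx3 tags and 234 and 150 of the Cbx5 tags. Of the HUSH silencing complex and its partner, Mphosph8 had 321 and 142 tags, Pphln1 452 and 303, and Morc2a 544 and 392. Daxx, the chaperone of histone H3.3, had the greatest covered length of the 44 genes in both libraries, 8417 bp in wild-type cells and 12011 bp in the knockout. Of this, 5582 and 7231 bp were a peak beyond the end of Daxx, shared with the windows of Tapbp and Zbtb22. The greatest length is thus not that of Daxx alone.

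Of the H3K9 eraser genes, Phf2 had 927 tags over 5303 bp in wild-type cells and 576 over 4223 bp in the knockout, and Kdm3b 581 and 418. Kdm3a had 333 tags over 1528 bp and 220 over 1322 bp. In the Kdm4 family, whose enzymes demethylate H3K9me3, Kdm4c had 398 and 261 tags in 1 peak, Kdm4b 388 and 174, Kdm4a 339 and 309 and Kdm4d 215 and 166. Kdm4d, better known from testis, lies head to head with Cwc15, and all of its tags were in 2 peaks on either side of its start that also touched the window of that gene, so its H3K4me3 cannot be told apart from that of Cwc15.

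No gene of the 44 reached a 2-fold difference in tags between the genotypes after centring (0 higher and 0 lower), while 1.65% of 14395 protein-coding genes with enough tags were at least 2-fold higher and 1.58% at least 2-fold lower in the knockout. The higher calls were 51.1% of those over all genes, and 12.5% when scaled to the tags after duplicate removal. With shares this small, 0 of 44 is close to what is seen over all genes. The 44 ratios had a median of 0.02 and an SD of 0.23, against 0 by construction and 0.40 for all protein-coding genes with enough tags. Counting error alone gives an SD of 0.11 at the depth of the 44 and 0.15 at that of all those genes. There were 23 ratios above 0 and 21 below, and only Daxx and Kdm4a lay above 0 when scaled to either measure of depth, tags after duplicate removal or total tags. By role the medians were -0.03 for the H3K4 writers and subunits, 0.13 for the H3K4 erasers, 0.01 for the H3K9 writers, 0.01 for the readers and cofactors and -0.08 for the H3K9 erasers. With 1 library per genotype it is not known how far such ratios would vary between animals.

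**Figure D2:**
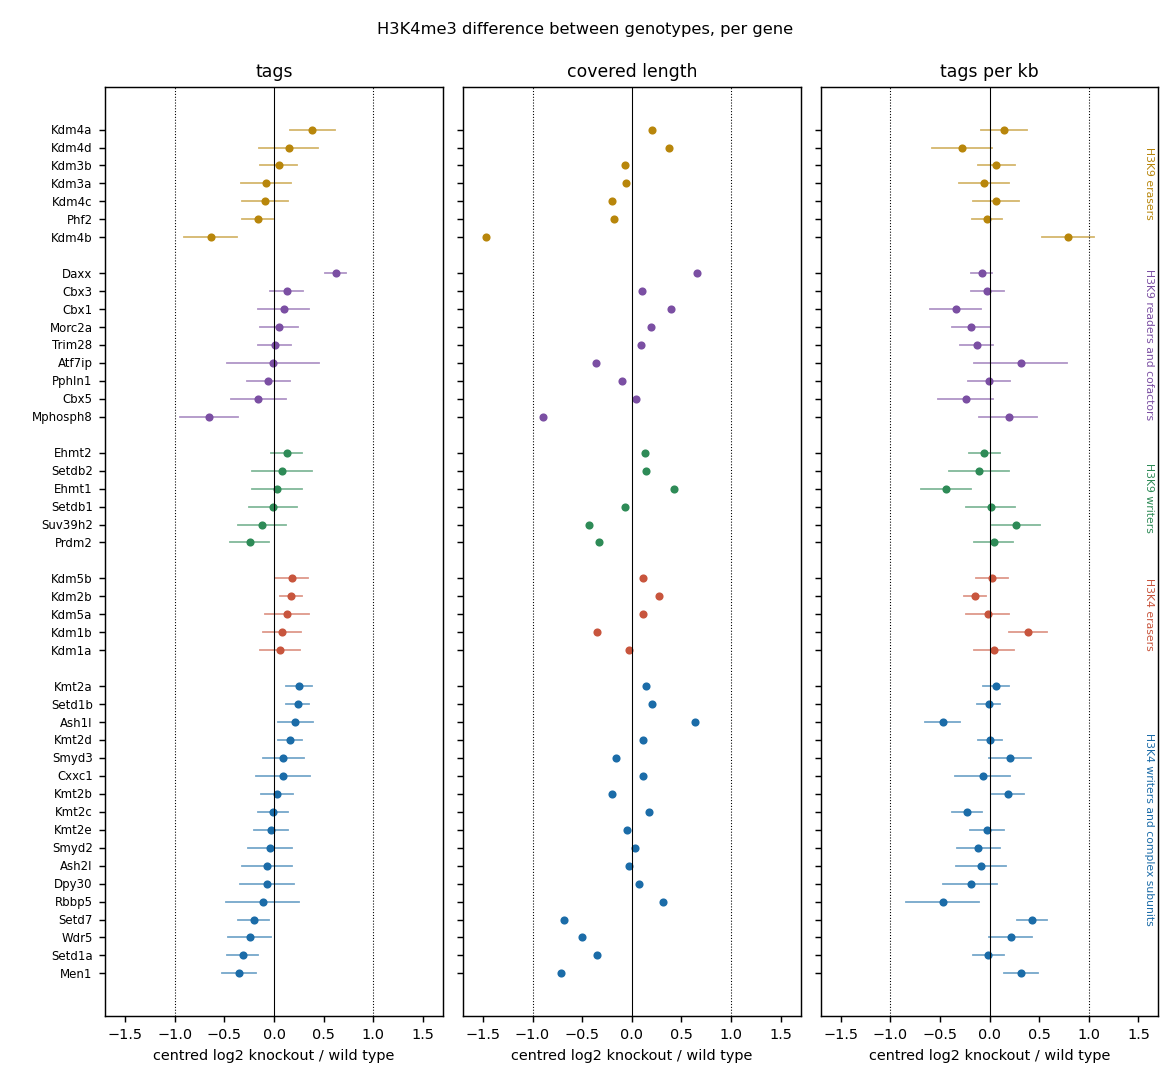
Centred log2 ratio, knockout over wild type, of H3K4me3 tags, covered length and tags per kb for each gene, 1 library per genotype. Horizontal lines are 95% counting intervals (none for length), dotted lines mark a 2-fold difference, and Kdm4b, at -1.47 in length, is the point outside them.

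The highest tag ratio was that of Daxx, 0.62 (0.52 to 0.73), from 1386 tags in wild-type cells and 1487 in the knockout. A peak shared with the windows of Zbtb22 and Tapbp, which encodes a chaperone of MHC class I loading, held 747 tags over 5582 bp in wild-type cells and 753 over 7231 bp in the knockout. At the start of Daxx itself (chr17:33908090-33910924), 1 wild-type peak of 639 tags stood against 2 knockout peaks of 177 and 557. With the wider knockout peaks, the density ratio of Daxx was -0.08 (-0.19 to 0.03), so its higher tag ratio came with a longer called domain. The 753-tag knockout peak had a score (the peak caller's measure of p, at least 50 for every peak) of 61.26, and with peaks of scores of at least 100 alone the tag ratio of Daxx was -0.39. Kdm4a followed at 0.39 (0.16 to 0.61), or 0.13 with those scores alone, with its start peak at 144 and 151 tags and called widths of 1059 and 1766 bp, and Kmt2a at 0.25 (0.12 to 0.39).

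The lowest tag ratios were those of Mphosph8, -0.66 (-0.95 to -0.37), Kdm4b, -0.64 (-0.90 to -0.37), and Men1, -0.35 (-0.52 to -0.18). With scores of at least 100 alone they were -0.33, -0.16 and -0.34. At Men1 the start peak as a pair stood at -0.085 and the peak shared with Map4k2 at -0.67, and the gene was at -0.052 without peaks that touch another gene's window. At Mphosph8, which encodes the H3K9me3-binding subunit of HUSH, the start peak held 258 tags in wild-type cells and 142 in the knockout, and as a single pair of peaks it stood at -0.38. A 40-tag peak upstream of the start and a 23-tag peak near the other end of the gene were called in wild-type cells alone. Kdm4b was the 1 gene of 44 whose covered length was at least 2-fold lower in the knockout, at -1.47, from 3696 bp to 1203 bp, a call that 3.72% of all genes met, while 1.52% were at least 2-fold longer. Its peak at the low-coordinate end of the gene (chr17:56326015-56327776), with 281 and 174 tags, was present in both, at -0.21 as a pair. A pair of neighbouring wild-type peaks inside the gene (chr17:56365062-56366281 and chr17:56366325-56367038), with 66 and 41 tags and scores of 73.68 and 50.01 against the caller's limit of 50, had no counterpart. The density ratio of Kdm4b was correspondingly the highest of the 44, 0.79 (0.53 to 1.05). No gene passed 2-fold in density, against 0.111% of all genes higher and 0.0278% lower.

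Length and density ratios ran in opposite directions across the 44 genes (Spearman's rho -0.78, a description across genes in which the 2 quantities share the length). Setd7 had a length ratio of -0.68 and a density ratio of 0.43, Men1 -0.71 and 0.32, and Wdr5 -0.50 and 0.21, while Ash1l had 0.64 and -0.47, Ehmt1 0.42 and -0.44, and Cbx1 0.40 and -0.34. In Setd7 the start peak was alike in both libraries (709 and 499 tags, -0.03 as a pair), and the difference lay in 2 peaks inside the gene, of 145 and 79 tags in wild-type cells and 38 and 27 in the knockout. Of the 83 wild-type peaks at the 44 genes, 70 overlapped a knockout peak (84.3%, interval 74.7 to 91.4%), and of the 77 knockout peaks 72 did (93.5%, 85.5 to 97.9%), against 77.3% and 85.9% of the peaks at all protein-coding genes. The 13 wild-type peaks without a counterpart held 19 to 88 tags, the 5 knockout peaks 19 to 44. The strongest of them, with 88 tags, covered the outer listed start of Cbx5, which in the knockout lay 481 bp from the nearest peak. That nearest peak, also in the window of Hnrnpa1, was 1642 bp wide in wild-type cells and 2448 bp in the knockout.

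Several start domains were called whole in 1 library and divided in the other. Phf2 had 1 wild-type peak of 5303 bp and 927 tags around its start, and 2 knockout peaks of 332 and 217 tags on either side of the start, plus a 27-tag peak inside the gene. Suv39h2 had 1 peak of 2104 bp against 2 of 933 and 477 bp, and Morc2a 1 of 2533 bp with 544 tags against 2 with 228 and 164. At Wdr5 the order was the reverse, with 147 and 340 tags in 2 wild-type peaks and 286 in 1 knockout peak. At Mphosph8, Cbx1, Phf2 and Kdm4d no knockout peak covered a listed start, which lay 22, 17, 6 and 25 bp outside the nearest one (51 bp at Kdm4d in wild-type cells). Such small gaps say little about the mark since the caller sets each edge in each library.

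**Figure D3:**
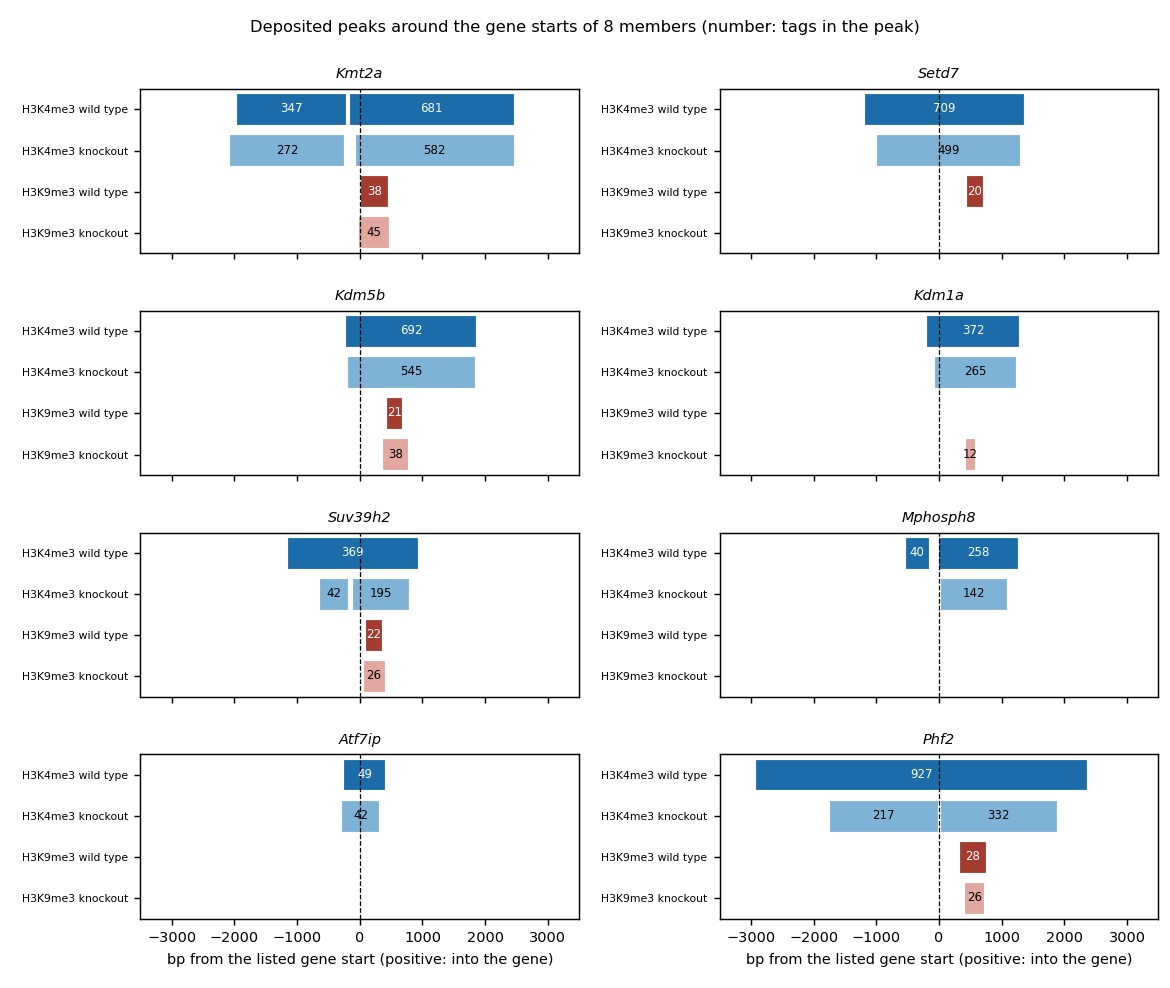
Deposited peaks around the listed start of 8 genes with a single start (dashed line at 0, horizontal axis in bp, positive into the gene), for H3K4me3 in blue and H3K9me3 in red, wild type dark and knockout light, with the tags of each peak printed on it. Phf2 and Suv39h2 show 1 wild-type and 2 knockout H3K4me3 peaks, and Kmt2a, Kdm5b, Suv39h2 and Phf2 a short H3K9me3 peak inside the H3K4me3 domain in both genotypes.

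Where a gene had more than 1 listed start, H3K4me3 picked out some of them. Of the 51 listed starts, 44 lay inside a wild-type and 42 inside a knockout H3K4me3 peak. Dpy30 had its only peak over 3 clustered starts 7511 to 7733 bp inside the gene, and no peak within 6923 bp (wild type) or 7001 bp (knockout) of the outermost listed start. Kdm4c was marked at the start 9382 bp inside the gene and not at the outermost one, which lay 8504 and 8619 bp from the nearest peak. Kdm3a was marked at its outer starts, and its inner start was 22301 and 22466 bp from any peak. Kdm2b was marked at both its outer and its inner starts, the latter belonging to the short form of the protein without the demethylase domain. The outer peak held 516 and 380 tags, the inner one 526 and 393, and a further peak between them, on chromosome 5 at 122950177 to 122952834 in wild-type cells and with no listed start inside, 437 and 349. As pairs the outer, inner and middle peaks had ratios of 0.04, 0.06 and 0.15, so these 3 sites kept nearly the same proportions in both libraries.

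The second comparison asked how H3K9me3 at these genes differed between the genotypes. In the wild type 24 of the 44 genes had at least 1 H3K9me3 peak and in the knockout 18, with 31 and 27 peaks in all, a median of 18 and 19 tags per peak (17 and 19 for all peaks at protein-coding genes) and no peak above 47 tags. A peak in both genotypes was found at 15 genes (34.1%, against 16.9% of all protein-coding genes), in wild-type cells alone at 9 (20.5%, against 8.74%), in the knockout alone at 3 (6.82%, against 11.2%) and in neither at 17 (38.6%, against 63.2%). The 44 genes are long, with a median of 42.2 kb against 17.2 kb for all protein-coding genes, and per Mb of gene window they had 10.2 and 8.90 peaks in the 2 libraries, against 8.17 and 8.62. Peaks this weak are often called in 1 library only: 13 of 31 wild-type peaks overlapped a knockout peak (41.9%, 24.5 to 60.9%), close to the 39.5% of all peaks at protein-coding genes, and 13 of 27 the other way (48.1%, 28.7 to 68.1%, against 37.5%).

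**Figure D4:**
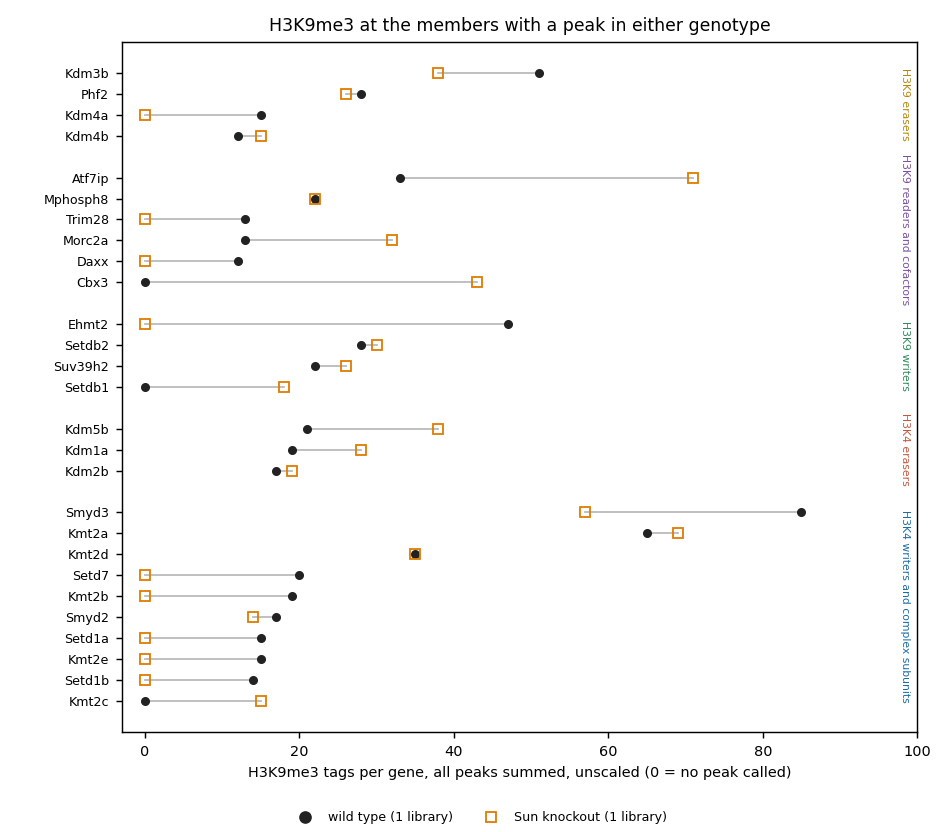
H3K9me3 tags per gene (horizontal axis, all peaks summed, not scaled, 0 where no peak was called) for the 27 genes with a peak in either library, wild type as filled circles and knockout as open squares. Smyd3, Kmt2a and Atf7ip are the genes with more than 60 tags in a library, and 12 genes are at 0 in 1 of them.

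By role, H3K9me3 was present in both libraries at 4 of 17 H3K4 writer and subunit genes, 3 of 5 H3K4 eraser genes, 2 of 6 H3K9 writer genes, 3 of 9 reader and cofactor genes and 3 of 7 H3K9 eraser genes. At 12 genes, a count without a share over all genes beside it, a wild-type and a knockout peak overlapped. Kmt2a had 2 such sites, one at its start with 38 tags in wild-type cells and 45 in the knockout, the other inside the gene with 27 and 24. Kmt2d had 35 and 35 tags, Kdm3b 38 and 38, Phf2 28 and 26, Suv39h2 22 and 26, Kdm5b 21 and 38 and Smyd2 17 and 14. Apart from the inner Kmt2a site, 19650 bp from the start in wild-type cells, and that of Kdm3b, at the low-coordinate end of a gene without a listed start, these sites lay within 417 bp of a listed start. In 3 genes, Kmt2a, Kmt2d and Kdm3b, both libraries had a peak with a score of at least 100.

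Away from starts, Setdb2 had H3K9me3 inside the gene, 28 tags in wild-type cells at 59429127 to 59429596 on chromosome 14, and 16 and 14 tags in 2 knockout peaks of which the second overlapped it. Mphosph8 had 22 tags in both libraries near its high-coordinate end, in a wild-type peak of 110 bp and a knockout peak of 319 bp, and this difference in called width gave the gene the 1 density ratio past 2-fold, -1.57, against 0.125% of all genes lower and 0.0312% higher. Smyd3, by far the longest gene of the set, had 5 wild-type peaks with 85 tags in all and 3 knockout peaks with 57, and a single position was common to both. Atf7ip had 2 wild-type peaks with 33 tags and 4 knockout peaks with 71. The strongest of these, 19 and 30 tags, overlapped the weak H3K4me3 peak beyond the gene's end that was shared with the window of Plbd1.

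Of the 15 genes with H3K9me3 in both libraries, 12 had enough tags for a ratio, at least 20 in 1 of them. Of them 1, Morc2a, was at least 2-fold higher in the knockout, at 1.12 (0.15 to 2.18) from 13 and 32 tags, and 0 were at least 2-fold lower, while 14.0% of 3204 protein-coding genes were higher and 15.2% lower. The wild-type peak of Morc2a, 193 bp wide with a score of 57, was close to the weakest called and overlapped the knockout peak of 442 bp by only 67 bp. The widths of Morc2a and Mphosph8 were also at least 2-fold higher, against 12.8% of all genes higher and 14.0% lower. Among genes with a peak in 1 library, Ehmt2 had the most tags in wild-type cells, 47 over 576 bp at 34898711 to 34899286 on chromosome 17, covering the inner of its 2 listed starts, and Cbx3 the most in the knockout, 30 and 13 tags in 2 peaks, the former covering its outer listed start. The other genes marked in wild-type cells alone, Kmt2b, Kmt2e, Setd1a, Setd1b, Setd7, Trim28, Daxx and Kdm4a, had 12 to 20 tags each, and the others marked in the knockout alone, Kmt2c and Setdb1, 15 and 18. The weakest H3K9me3 peak of the set held 12 tags in either library.

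The third comparison set the marks side by side within a genotype. Most H3K9me3 peaks at these genes lay inside H3K4me3 domains rather than apart from them: 22 of 31 in wild-type cells (71.0%, 52.0 to 85.8%) and 17 of 27 in the knockout (63.0%, 42.4 to 80.6%) overlapped an H3K4me3 peak of the same genotype by at least 1 bp. Of all H3K9me3 peaks at protein-coding genes, 39.7% and 50.8% did. Both marks were present at 24 of 44 genes in wild-type cells, against 23.2% of all protein-coding genes, and at 18 in the knockout, against 25.9%. Since all 44 genes carried H3K4me3, these counts repeat those of genes with H3K9me3 given above. The shares over all genes include shorter genes and genes without H3K4me3 (28.3% in neither genotype), so the comparison is not like for like. The same limit holds for the shares of overlapping peaks. At 22 and 16 genes the peaks of the marks overlapped, and at 12 genes they did so in both genotypes: Kmt2a, Kmt2d, Smyd2, Smyd3, Kdm1a, Kdm2b, Kdm5b, Suv39h2, Atf7ip, Morc2a, Kdm3b and Phf2. No share over all protein-coding genes stands beside these counts of genes, so they only describe the 44. At Smyd3, Kdm1a and Kdm2b the overlap was at different sites in the 2 genotypes. The peaks were called without a control library.

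The 2 marks differed strongly in extent at the same genes. A median H3K4me3 peak of the set was 1528 bp wide in wild-type cells and 1473 bp in the knockout, a median H3K9me3 peak 252 and 284 bp. At Kmt2a the H3K4me3 domain held 1028 and 854 tags and the H3K9me3 peaks 65 and 69, or 6.32% and 8.08% of the H3K4me3 number, and at Kdm5b the H3K9me3 tags were 3.03% and 6.97%. Suv39h2, an enzyme that places H3K9me3, had 22 and 26 H3K9me3 tags beside 369 and 237 H3K4me3 tags. Tags of different antibodies are not on a common scale, so these shares only describe the lists. Atf7ip was the gene where the numbers came closest, with 98 H3K4me3 and 33 H3K9me3 tags in wild-type cells and 68 and 71 in the knockout. Conversely 17 genes, among them Wdr5, Rbbp5, Ash2l, Dpy30, Cxxc1 and Men1, subunits of the H3K4 complexes, had H3K4me3 and no H3K9me3 peak in either library. The correlation of H3K4me3 and H3K9me3 tags over the 44 genes was 0.33 in wild-type cells and 0.10 in the knockout (Spearman's rho, a description over genes that share libraries and differ in length).

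Other genes of the same pathways, a list of 53 that includes further subunits, readers and demethylases, was set beside the 44. H3K4me3 was present in both genotypes at 51, in the knockout alone at 1, Smyd1, a muscle enzyme with 49 tags, and in neither at 1. Their centred tag ratios had a median of 0.00 and an SD of 0.22, with 0 genes 2-fold higher and 0 lower. For H3K9me3, 14 of the 53 had a peak in both, 7 in wild-type cells alone and 4 in the knockout alone, and of 13 with enough tags for a ratio 2 were at least 2-fold higher and 0 lower, with a median of 0.54. DNA methylation genes had H3K4me3 in both genotypes at 17 of 18, with a median ratio of -0.01 and 1 gene at least 2-fold higher, Dnmt3l, from 47 to 84 tags (1.36), and genes for methylation of H3K27, H3K36 and H4K20 at 19 of 19, with a median of 0.01 and 0 past 2-fold. For H3K9me3, 9 of those 19 genes had a peak in both genotypes (47.4%), and 3 of 9 ratios were at least 2-fold higher and 0 lower, with a median of 0.75. Of the 18 DNA methylation genes 3 had H3K9me3 in both, with 0 of 3 ratios past 2-fold. Over all protein-coding genes with an H3K9me3 ratio, 14.0% were at least 2-fold higher and 15.2% lower, with a median of 0 by construction. For H3K4me3 these shares were 1.65% and 1.58%. An H3K9me3 peak in both genotypes was found at 16.9% of all protein-coding genes. The lists share some genes. Kdm2a, with an H3K9me3 ratio of 1.19, is counted as higher both in the list of 53 and among the genes for H3K27, H3K36 and H4K20. These lists hold few ratios each, and the differences between the lists were not tested.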

How the data were processed

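ChIP-seq libraries for H3K4me3 and H3K9me3 from wild-type and Sun knockout macrophages, 1 each, were grouped by their labels. The submitters' processing notes name CASAVA 1.4, Bowtie 0.12.8, DiffBind, MACS 1.4.2 and the build mm10, with roles not stated. Per the file headers, every file lists the peaks of a single library from MACS 1.4.2, run with no control at a p-value limit of 1e-05, keeping at most 1 tag per position, with local background over up to 10000 bp. The fragment size that MACS estimated, per the file headers, was 142 and 149 bp in the H3K4me3 libraries and 66 and 71 bp in those of H3K9me3, near the tag length of 50 bp, and how the H3K9me3 peaks depend on it was not tested. For each peak the authors deposited its tag count, a score computed from its p-value, its fold enrichment over local background (a ratio), and as other measures the width and the summit position in bp. Score and fold are the authors' values and serve here to describe or filter peaks of the same list.

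Tag counts and widths were summed per gene with Python 3.11.15, pandas 2.3.3, numpy 2.4.6 and scipy 1.17.1, and figures drawn with matplotlib 3.10.9. Ratios required a peak in both libraries and at least 50 tags (H3K4me3) or 20 tags (H3K9me3) in 1 of the 2 libraries and were centred on the median protein-coding gene, with exact conditional binomial intervals. Shares have exact Clopper-Pearson intervals. Called means at least 2-fold, and no test was run. The computation of ratios was run on simulated tag counts without peak calling or changes of peak width, so the effect of those was not tested. Peaks of the libraries were paired where at least 50% of each lay in the other and neither touched a further peak, and their ratios were centred on the median pair. Genes and promoters came from RefSeq tables of GRCm38.p6 without exons, so positions are not assigned to exons or introns. All 44 genes may be named, the other lists only by genes marked in 1 genotype or at least 2-fold apart. The members and lists were chosen with earlier results of these data known.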

Additional observations from a re-analysis of the deposited data

How the results depend on the processing

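No paired analysis was possible because each mark and genotype has 1 library. All 44 genes kept an H3K4me3 peak in both genotypes with windows of 0 and 500 bp and a wider one and with scores of at least 100, as did 33 of the 33 with a listed start within 1000 bp of one and 31 when peaks that touch another gene's window were left out. The count of genes at least 2-fold apart in H3K4me3 tags, 0, became 4 with a window of 0 bp (Men1, Cbx5, Morc2a and Kdm4d, whose peaks then drop out in part) and 2 when scaled to tags after duplicate removal (Mphosph8 and Kdm4b), a scaling that also moves the share of higher calls among all genes from 51.1% to 12.5% (20.7% when scaled to total tags). The median ratio of 0.02 became -0.35 with that scaling, -0.25 when scaled to total tags and -0.038 over peaks of 1 gene window only. In covered length, the 1 gene 2-fold apart became 3 with the peak of most tags per gene (Men1, Suv39h2 and Phf2) and 0 with paired peaks. For H3K9me3, the 15 genes with a peak in both became 3 at scores of at least 100 and 7 within 1000 bp of a listed start, and the 1 gene 2-fold apart became 0 at that score and 2 under either scaling (Atf7ip and Morc2a). Genes with both marks became 5 (wild type) and 7 (knockout) at scores of at least 100, against 24 and 18, so their order depends on the score. At that score the H3K4me3 ratio of Daxx turned from 0.62 to -0.39, since a knockout peak of 753 tags scores less. The other causes were not tested. The other alternatives kept each count within 1.5 times. H3K9me3 peaks of 12 to 47 tags limit what can be detected.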
